A study of Homo sapiens with 12 samples.

Results

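The regions described here are the ChIP-seq peaks that lay within 50 kb of the transcription starts of 9 genes of the Wnt and β-catenin pathway in HepG2 cells. In all, 335 of 273551 peaks on chromosomes 1 to 22 and X met that rule: 118 of 66513 for H3K27ac, 192 of 182592 for H3K4me1 and 25 of 24446 for H3K4me3. AXIN2, LGR5, NKD1, GLUL, TBX3, RNF43, ZNRF3 and LEF1 were taken as genes known to respond to β-catenin. LRP6 was chosen by its H3K27ac signal value, which at 122 was the highest of the whole list, ahead of 105 and 104 for the next peaks. That value is therefore a description and not a finding. The 50 kb limit ran through some peaks, which were kept, among them H3K27ac peaks of RNF43 (44130 to 54922 bp downstream) and LRP6 (48536 to 53188 bp, signal value 17.0). By the distance of the nearest base, the farthest H3K27ac peak inside it, 49643 bp from the NKD1 start, had a signal value of 2.96, and the nearest outside, 50748 bp from that start, had 1.94. For H3K4me1 the values were 4.00 near LEF1 (49583 bp) and 4.35 near LRP6 (50356 bp), and for H3K4me3 2.96 near TBX3 (47692 bp) and 4.31 near GLUL (51337 bp).

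HepG2 is an established cell line from a human liver carcinoma, and the cells had no treatment, per the labels. The labels describe 12 libraries, 3 each for the acetylation H3K27ac, the methylations H3K4me1 and H3K4me3, and a control titled as input whose antibody label names an anti-mouse immunoglobulin. The values come from a single peak list of the authors per mark, named as pooled over replicates. Each peak carries a signal value from the authors' peak caller, whose scale is not stated, so values are compared only within a list. The depth of the libraries and the spread between cultures are unknown, and no difference below was tested.

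Wnt ligands bind Frizzled receptors together with the co-receptors LRP5 and LRP6. This stops the destruction complex, built on AXIN and APC, from marking β-catenin for degradation, and β-catenin then enters the nucleus and acts with TCF and LEF factors on target genes. In the liver the pathway is active around the central veins, where hepatocytes make glutamine synthetase, the product of GLUL. HepG2 cells are known to carry an activating deletion in the β-catenin gene. H3K4me3 is typical of active promoters, H3K4me1 of enhancers and promoter flanks, and H3K27ac of active promoters and enhancers alike.

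Of the 9 starts, 8 lay inside an H3K27ac peak and 8 inside an H3K4me3 peak, the exception in both cases being LEF1. Only the LEF1 start lay inside an H3K4me1 peak. The starts were given by GRCh37 position and no annotation of that build was used here, so the nearest measure over the whole list is taken at H3K4me3 summits, the position of the highest signal in a peak. The summit of the H3K4me3 peak at or next to the start lay inside an H3K27ac peak for 8 of the 9 genes, against 76.4% of all H3K4me3 summits. It lay inside an H3K4me1 peak for 1 of the 9, against 40.6% of all. The H3K4me3 peaks at 8 of the starts had signal values of 37.9 to 73.3, against a list median of 13.3. LEF1, the gene inside H3K4me1, had 4.72. The part of strength in these shares was not tested. The map of peaks within 12 kb shows this arrangement, with H3K4me1 on either side of a start and not at it.

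**Figure D1:**
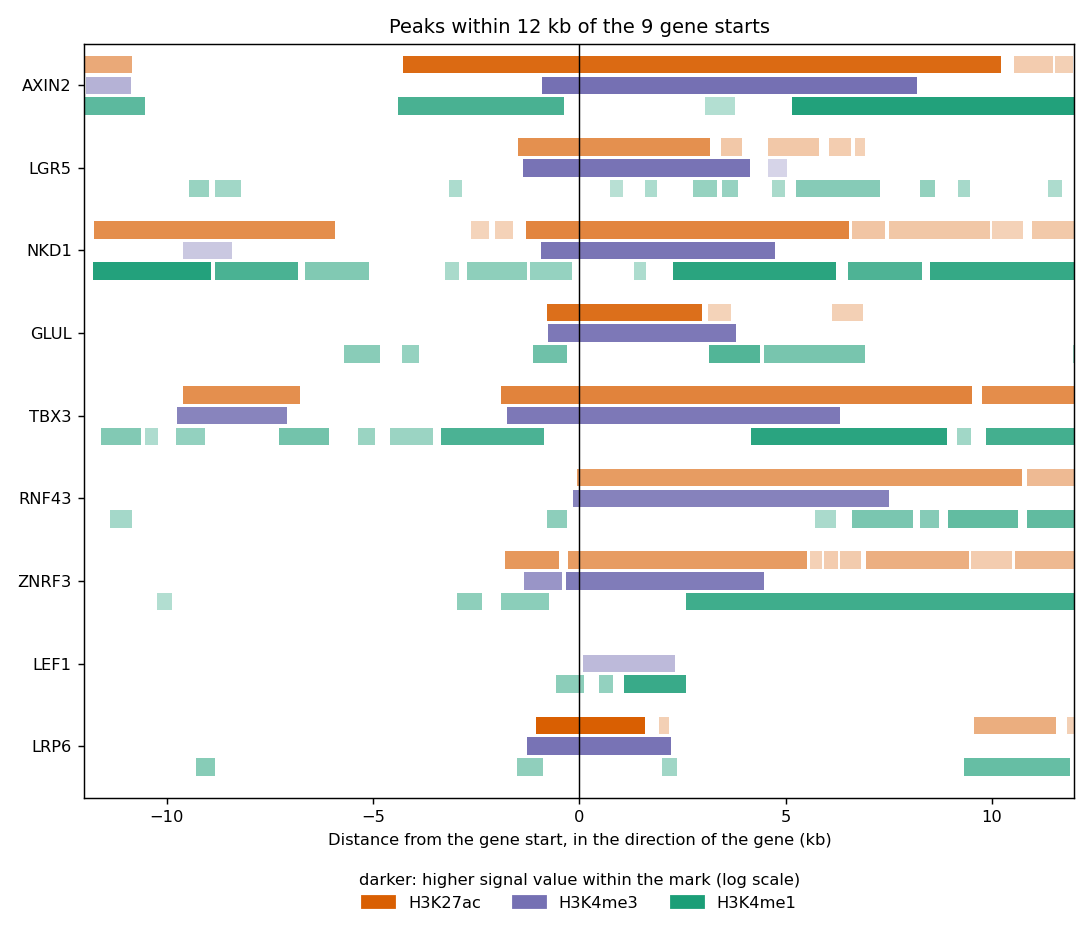
Peaks of H3K27ac (orange), H3K4me3 (purple) and H3K4me1 (green) by distance from each of the 9 gene starts in kb, in the direction of the gene, so that positive values are downstream. Darker bars have a higher signal value within their mark. Orange and purple bars cross the start in 8 genes and reach farther downstream than upstream, green bars leave a gap there, and LEF1 has no orange bar.

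Among the feedback inhibitors of the pathway, AXIN2, a scaffold of the destruction complex and a widely used reporter of the pathway, starts at position 63557740 on chromosome 17, minus strand. Its H3K27ac peak ran from 63547510 to 63562011, 14502 bp in all, and had a signal value of 82.9, rank 29 in the list. The H3K4me3 peak at the same start was 9090 bp wide, the rank of its width being 31 of 24446, with a signal value of 73.3, rank 287. It was the strongest and widest H3K4me3 peak among the start peaks of the 9 genes.

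NKD1, which restrains Wnt signalling by way of Dishevelled, starts at 50582241 on chromosome 16, plus strand. Its start lay in an H3K27ac peak of 7834 bp (50580954 to 50588787, signal value 30.1) and an H3K4me3 peak of 5653 bp (50581318 to 50586970, 60.9). RNF43 and ZNRF3 are related membrane ubiquitin ligases that remove Frizzled receptors from the cell surface. The RNF43 start, at 56494956 on chromosome 17, minus strand, had an H3K27ac peak of 10793 bp (56484222 to 56495014, 13.1) and an H3K4me3 peak of 7683 bp (56487441 to 56495123, 37.9). The ZNRF3 start, at 29279755 on chromosome 22, plus strand, had an H3K27ac peak of 5780 bp (29279485 to 29285264, 12.8) and an H3K4me3 peak of 4786 bp (29279432 to 29284217, 47.3). These ligase genes had the lowest signal values of both marks among the 8 marked starts, although the RNF43 peaks were among the widest of their lists, with width ranks of 226 for H3K27ac and 71 for H3K4me3.

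Among the receptors, LGR5 binds R-spondins, which protect Frizzled from those ligases, and is a stem cell marker of several epithelia. It starts at 71833550 on chromosome 12, plus strand. Its H3K4me3 peak (71832181 to 71837685, 5505 bp) had a signal value of 65.3, the second highest of the 9 genes, and its H3K27ac peak (71832049 to 71836726, 4678 bp) one of 19.9. LRP6, the co-receptor, starts at 12419811 on chromosome 12, minus strand. The H3K27ac peak that chose it ran from 12418222 to 12420866, and at 2645 bp was the narrowest of the 8. Its H3K4me3 peak (12417600 to 12421085, 64.4) was also the narrowest, at 3486 bp. LRP6, the strongest in H3K27ac because it was chosen by that value, thus had the narrowest start peak. AXIN2, the next strongest, had the widest.

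GLUL and TBX3 are targets linked to the liver, TBX3 encoding a T-box repressor that acts downstream of β-catenin in liver tumours. GLUL starts at 182361341 on chromosome 1, minus strand. Its H3K27ac peak (182358371 to 182362132, 3762 bp) had a signal value of 68.9, rank 143, and its summit lay 3 bp from the start. The H3K4me3 peak (182357558 to 182362109, 4552 bp) had 53.6. TBX3 starts at 115121969 on chromosome 12, minus strand, in an H3K27ac peak of 11428 bp (115112455 to 115123882, 31.7) and an H3K4me3 peak of 8053 bp (115115663 to 115123715, 54.0), whose width ranked 54.

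LEF1, a DNA-binding partner of β-catenin and itself a target in several tumours, starts at 109090112 on chromosome 4, minus strand. No H3K27ac peak lay within 50 kb of it. The nearest were 177.8 kb downstream and 450.6 kb upstream, which left a stretch of 628.4 kb without any. Of the windows of 50 kb to either side of all H3K4me3 summits, 7.12% held no H3K27ac peak. An H3K4me3 peak of 2218 bp began 89 bp downstream of the start (109087806 to 109090023), with a signal value of 4.72, rank 16506. It overlapped H3K4me1 peaks only. They were a weak one that held the start (signal value 3.38), another at 466 bp downstream (3.13) and a stronger one from 1071 to 2575 bp downstream (8.17, rank 6344). LEF1 thus carried both methylations near its start without a listed acetylation, the only such case among the 9 genes. A missing peak shows that none was listed at the authors' threshold, not that the mark was absent.

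For the 8 start peaks, the ratio of highest to lowest signal value was larger in the H3K27ac list than in the H3K4me3 list. H3K27ac ran from 12.8 at ZNRF3 to 122 at LRP6, a ratio of 9.49, with a median of 30.9. Without LRP6, which was chosen by this value, the highest was 82.9 at AXIN2 and the ratio 6.47. H3K4me3 ran from 37.9 at RNF43 to 73.3 at AXIN2, a ratio of 1.93, with a median of 57.5. The medians over the whole lists were 3.15 and 13.3. The scales of the lists differ, so the ratios describe each list only. By rank in its list, H3K27ac ran from the top 0.00150% at LRP6 to the top 18.9% at ZNRF3. H3K4me3 ran from the top 1.17% at AXIN2 to the top 29.4% at RNF43. Without LRP6, the highest H3K27ac place was the top 0.0436% at AXIN2. In percentage points the span was not wider for H3K27ac, with or without LRP6. As a ratio of ranks it was wider, with ranks of 29 to 12579 without LRP6 against 287 to 7197 for H3K4me3. In descending order of H3K27ac the genes were LRP6, AXIN2, GLUL, TBX3, NKD1, LGR5, RNF43 and ZNRF3, whereas in H3K4me3 they were AXIN2, LGR5, LRP6, NKD1, TBX3, GLUL, ZNRF3 and RNF43. Without replicate values it is not known which neighbours in these orders differ, and 31.7 and 30.1 for TBX3 and NKD1, or 13.1 and 12.8 for RNF43 and ZNRF3, lie close together.

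The 2 marks could be set side by side by asking how often an H3K4me3 peak at least as strong overlapped weaker acetylation, taking the strongest overlapping H3K27ac peak and a value of 0 where there was none. For LGR5, 99 of 807 such H3K4me3 peaks (12.3%) had weaker H3K27ac, and their median H3K27ac signal value was 35.7 against 19.9 at LGR5. The shares were similarly low for ZNRF3 (391 of 4502, 8.69%) and RNF43 (995 of 7197, 13.8%). They were intermediate for NKD1 (41.5%) and TBX3 (53.5%), and high for GLUL (2671 of 2758, 96.8%), AXIN2 (279 of 287, 97.2%) and LRP6 (899 of 900, 99.9%). Against H3K4me3 peaks at least as strong, GLUL, AXIN2 and LRP6 thus stood high, the receptor gene LGR5 and the ligase genes low. For LRP6 this share follows from how it was chosen. The compared peaks were not matched in strength. Their median H3K27ac signal value was 25.7 for RNF43 and 38.6 for AXIN2, so the shares of different genes rest on unlike sets.

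**Figure D2:**
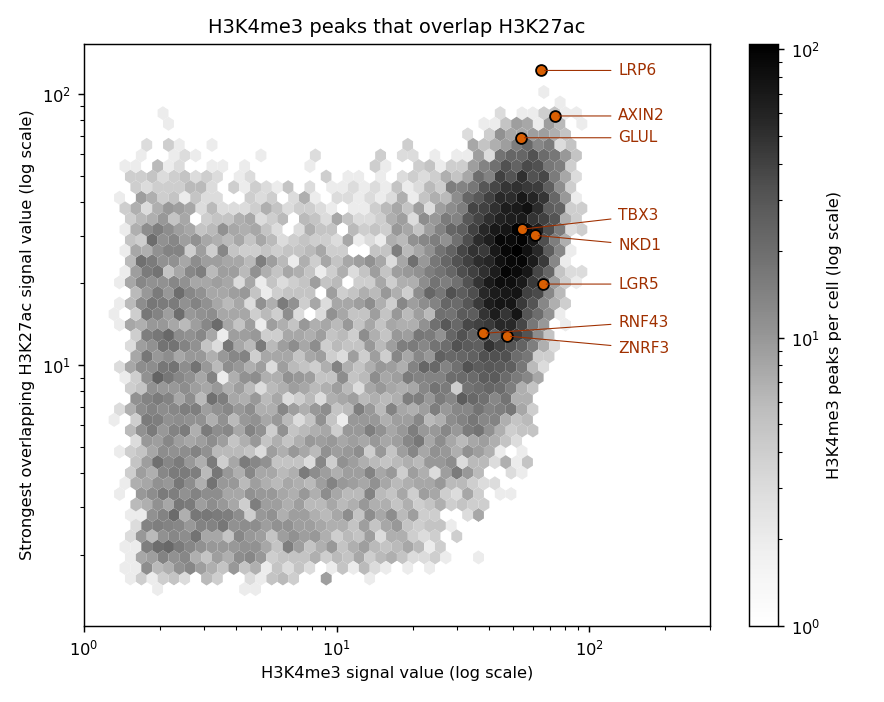
H3K4me3 signal value (x axis, log scale) against the signal value of the strongest overlapping H3K27ac peak (y axis, log scale) for all H3K4me3 peaks that overlap H3K27ac, as grey cells whose shade gives the number of peaks. Orange points are the start peaks of 8 genes (LEF1 had no H3K27ac peak): LRP6 lies at the upper edge of all peaks, while LGR5, RNF43 and ZNRF3 lie lowest of the 8 in H3K27ac.

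The promoter marks were long and lay mainly downstream. Of the 9 H3K4me3 peaks at or next to a start, 7 were wider than 4 kb, as were 6.71% of all H3K4me3 peaks. The exceptions were LRP6 and LEF1. Of the 8 H3K27ac start peaks, 3 were wider than 10 kb (AXIN2, TBX3 and RNF43), as were 0.459% of all H3K27ac peaks. The median widths of the start peaks were 6807 bp for H3K27ac and 5579 bp for H3K4me3, against 723 and 1536 bp in the lists. The start peaks were also stronger than the list medians, and the part of strength in these widths was not tested.

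In each of the 8 H3K27ac and 8 H3K4me3 start peaks, more of the length lay downstream of the start than upstream. The downstream share of the H3K4me3 peak was 63.4% at LRP6, 75.1% at LGR5, 78.3% at TBX3, 83.1% at GLUL and 83.7% at NKD1. It was 90.1% at AXIN2, 93.2% at ZNRF3 and 97.8% at RNF43. At RNF43 the H3K27ac peak reached 58 bp upstream and 10734 bp downstream of the start, and at ZNRF3 270 and 5509 bp. ZNRF3 had separate peaks just upstream, H3K27ac from 0.5 to 1.8 kb (signal value 14.8, above the 12.8 at the start) and H3K4me3 from 0.4 to 1.3 kb (18.6). With peaks within 1000 bp joined, an alternative chosen after seeing the data, the H3K4me3 share at ZNRF3 was 76.8% and that at RNF43 was 97.8% as before. RNF43 was therefore the most one-sided of the 8 with and without joining. The high H3K4me3 share of ZNRF3 rested on a short break between peaks. Its H3K27ac share was 95.3%, and with joined peaks still 89.3%. By position, 9 of the 9 genes had H3K4me3 and 8 had H3K27ac at 2000 bp downstream, whereas at 2000 bp upstream 0 had H3K4me3 and 2 had H3K27ac (AXIN2 at its own peak, NKD1 at a separate weak one). At 2000 bp downstream LRP6 had H3K27ac only through a separate peak with a signal value of 1.88, its start peak having ended at 1589 bp, and LEF1 had H3K4me3 through the peak next to its start. Around all H3K4me3 summits, which have no direction here, the shares at 2000 bp were 12.3% for H3K4me3 to either side, and 20.7% and 20.3% for H3K27ac.

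Summits differed between the marks at these starts. No direction can be given to the peaks of the whole lists, so the counts below have no background. The H3K4me3 summit lay downstream of the start in 8 of 8 start peaks, at 260 bp for LRP6, 319 bp for RNF43, 323 bp for TBX3, 512 bp for LGR5, 669 bp for GLUL, 827 bp for ZNRF3, 884 bp for NKD1 and 1533 bp for AXIN2. The H3K27ac summit lay downstream in only 3 of 8 (RNF43 220 bp, ZNRF3 264 bp, AXIN2 1003 bp). In the other 5 it lay upstream, by 3 bp at GLUL, 292 bp at LGR5, 297 bp at LRP6, 374 bp at NKD1 and 722 bp at TBX3. The 3 bp at GLUL put that summit at the start and hardly to a side. All these distances rest on a single given start for each gene.

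Around the 8 starts outside H3K4me1 the gap in that mark was 1500 bp at NKD1, 2874 bp at LRP6, 3309 bp at ZNRF3, 3411 bp at AXIN2, 3444 bp at GLUL, 3589 bp at LGR5, 5027 bp at TBX3 and 6018 bp at RNF43, with a median of 3427.5 bp. In 7 of them the nearest H3K4me1 peak upstream was closer than the nearest downstream, for example 186 against 1315 bp at NKD1, 297 against 5722 bp at RNF43 and 307 against 3138 bp at GLUL. LGR5 was the exception, with 2842 bp upstream and 748 bp downstream. In most of these genes the upstream edge of H3K4me1 was therefore nearer to the start than the downstream edge. This count has no background over other starts, and it rests on a single given start for each gene. In all 8 the downstream H3K4me1 began before the H3K4me3 peak ended, for example at 3138 bp against an end at 3783 bp for GLUL, and at 5722 against 7515 bp for RNF43.

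Promoter sequences were looked up for the genes where RefSeq's table (GRCh38.p14) had an entry, which was so for 3 of the 9 genes, with 5 starts. Those of GLUL and RNF43 are shown because only these genes had an entry at the outermost start of the gene. Their H3K27ac start peaks differed: among the 8, that of GLUL was strong and narrow, and that of RNF43 weak, wide and one-sided. A link between sequence and peak was not tested. Within the whole list both were wider and stronger than the median. The stretches are the 250 bases before the outermost start of each gene in that build, minus strand, 5′ to 3′, with CG dinucleotides in capitals. They lie at chr1:182391791-182392040 for GLUL and chr17:58417535-58417784 for RNF43. How these starts relate to the GRCh37 positions used for the peaks was not settled, since positions were not converted between builds.

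GLUL: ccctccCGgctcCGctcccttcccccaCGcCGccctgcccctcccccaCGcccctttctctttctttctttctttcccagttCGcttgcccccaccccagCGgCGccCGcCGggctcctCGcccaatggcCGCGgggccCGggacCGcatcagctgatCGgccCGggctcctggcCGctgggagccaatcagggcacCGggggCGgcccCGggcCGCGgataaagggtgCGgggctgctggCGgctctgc

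RNF43: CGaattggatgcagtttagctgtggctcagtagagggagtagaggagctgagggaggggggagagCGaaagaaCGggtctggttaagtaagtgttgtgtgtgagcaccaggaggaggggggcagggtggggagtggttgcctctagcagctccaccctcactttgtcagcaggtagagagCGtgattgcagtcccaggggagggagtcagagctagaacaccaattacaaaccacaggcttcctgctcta

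The GLUL stretch holds 25 CG dinucleotides and the RNF43 stretch 4. Over the 300 bases of the table's entries, which add 50 bases after the start, the counts were 29 and 5, and 75.8% and 29.6% of the 35116 entries had fewer. The TCF and LEF motif CTTTGAT, on either strand, was in 0 of the 5 entries of GLUL, LEF1 and RNF43 and in 2.62% of all entries. The shorter CTTTGA, which each CTTTGAT contains, was in 0 of 5 and in 12.9%, and the TATA motif TATAAA in 0 of 5 and in 11.5%. These letters are a description of the windows only.

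Over the whole windows, start peaks included, the genes differed widely in how much acetylation they held. The number of H3K27ac peaks within 50 kb was 31 at NKD1, 21 at AXIN2, 19 at ZNRF3, 16 at LRP6, 10 at LGR5 and at RNF43, 8 at TBX3, 3 at GLUL and 0 at LEF1. Windows around all H3K4me3 summits had a median of 6 (interquartile range 3 to 11). By length, H3K27ac covered 49.9% of the window at ZNRF3, 49.4% at NKD1, 47.1% at RNF43, 34.7% at AXIN2 and 29.1% at TBX3, against a median of 8.20% around H3K4me3 summits. It covered 17.2% at LRP6, 11.1% at LGR5 and 5.05% at GLUL. By length the feedback inhibitors thus had the most acetylated windows of the 9 genes, with the start peaks counted. The start peak gave 14502 of the 34693 bp covered at AXIN2, 11428 of 29068 bp at TBX3 and 3762 of 5055 bp at GLUL. GLUL had the second strongest acetylation of the targets at its start but almost none elsewhere in its window. The number of peaks rests partly on weak ones: 74 of the 118 reached a −log10 q-value of 5.

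**Figure D3:**
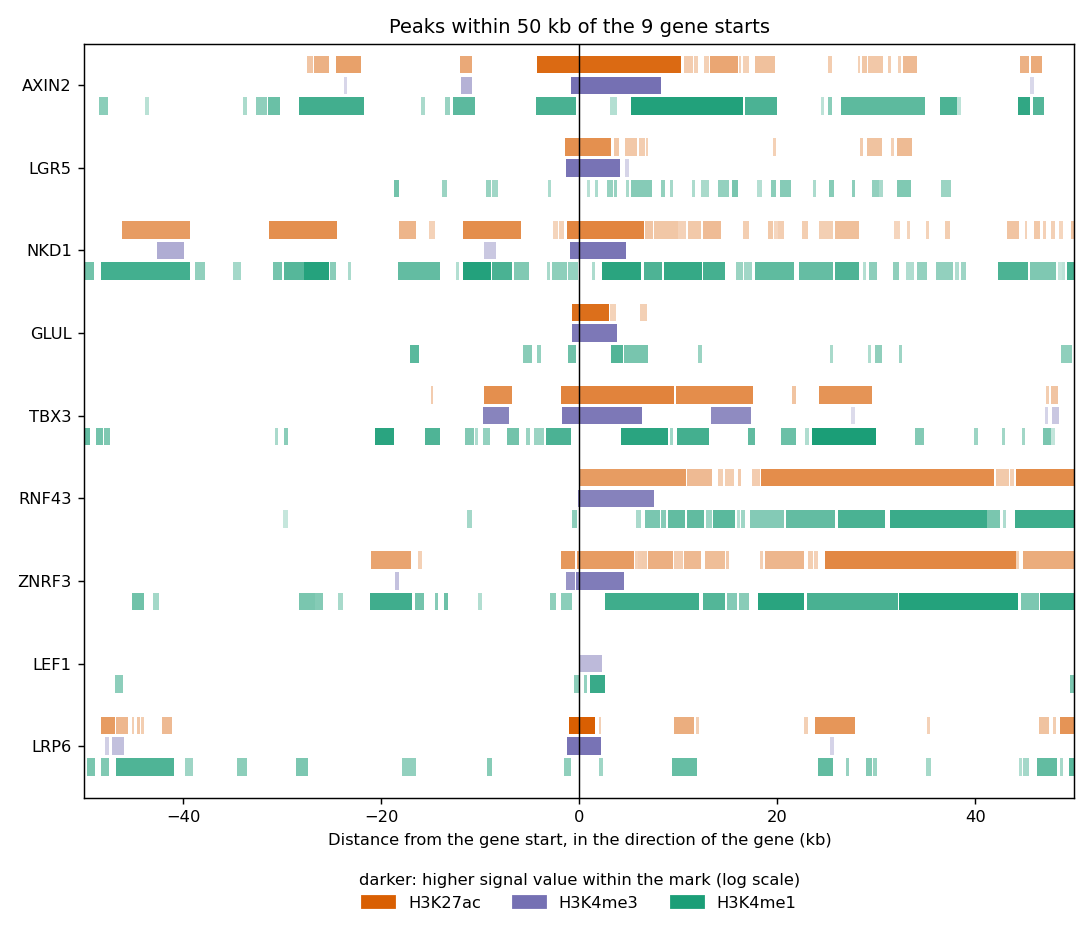
Peaks of H3K27ac (orange), H3K4me3 (purple) and H3K4me1 (green) within 50 kb of each gene start, by distance in kb in the direction of the gene. Darker bars have a higher signal value within their mark. NKD1, AXIN2, RNF43 and ZNRF3 have long runs of orange and green, RNF43 downstream of its start only, while GLUL has 3 orange bars and LEF1 none.

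Summits of H3K27ac peaks were more numerous downstream of the start in all 8 genes that had any, 91 in all against 27 upstream. Among peaks that reached a −log10 q-value of 5 the totals were 54 and 20, and 6 of the 8 genes had more downstream. RNF43 had 10 downstream and 0 upstream, and its nearest H3K27ac peak upstream was 80.4 kb away. LGR5 and GLUL also had no H3K27ac peak upstream within the window other than the one at the start, the nearest being 272.3 and 347.7 kb away. For H3K4me1 the totals were 116 downstream and 76 upstream, with more downstream in 6 genes. No direction can be given to the list as a whole, so these counts have no background. Peaks were assigned by distance alone, and some may belong to neighbours. In the order of protein-coding genes in RefSeq (GRCh38.p14), RNF43 lies between SUPT4H1 and HSF5, NKD1 between BRD7 and SNX20, ZNRF3 between XBP1 and C22orf31, and LRP6 between BCL2L14 and MANSC1.

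H3K27ac peaks were divided by the methylation they overlapped by at least 1 bp. Of the 118 peaks near the genes, 27 (22.9%) overlapped H3K4me3, against 31.7% of the list, and are called promoter-like. A further 87 (73.7%) overlapped H3K4me1 without H3K4me3, against 59.8%, and are called enhancer-like. The remaining 4 (3.39%) overlapped neither, against 8.52%. Of the 192 H3K4me1 peaks, 86 (44.8%) overlapped neither other mark, against 61.6%. The shares of the lists are over all their peaks and not over windows around H3K4me3 summits, so they are not a like background. Several peaks of 1 gene share a neighbourhood and are not independent, and NKD1 alone gave 28 of the 87 enhancer-like peaks.

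The wide enhancer-like regions were those of the ligase genes. At RNF43 a single H3K27ac peak ran from 56453075 to 56476588, 18.4 to 41.9 kb downstream of the start. At 23514 bp its width ranked 7 in the list, and its signal value was 22.3, above the 13.1 of the promoter peak. It was followed by another, of 10793 bp (56440034 to 56450826, rank 445 by signal value among 39769 enhancer-like regions), that ran past the edge of the window. At ZNRF3 a peak of 19198 bp lay 24.9 to 44.0 kb downstream (29304606 to 29323803), with a signal value of 26.3, again above the 12.8 at the start. Among the enhancer-like regions its width ranked 4 and its signal value 285. It overlapped 2 H3K4me1 peaks, the stronger with a signal value of 10.1. In these genes, then, the strongest acetylation within 50 kb was not at the start, in contrast to the other 6 with H3K27ac peaks. Among those 6, LRP6 was chosen by the signal value of its start peak, so its case was fixed by that choice.

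NKD1 had its largest distal regions upstream. An enhancer-like peak of 6830 bp (50550883 to 50557712, 24.5 to 31.4 kb upstream) had a signal value of 20.8, rank 610 among enhancer-like regions. A peak of 5840 bp from 5.9 to 11.8 kb upstream had 21.8 and overlapped a weak H3K4me3 peak (2.91), and one of 6863 bp from 39.3 to 46.2 kb upstream had 12.8 and overlapped H3K4me3 of 7.94. Each overlapped H3K4me1, which reached 10.0 and 10.2 in the nearer pair. Downstream of the NKD1 promoter peak the acetylation was weak, with no signal value above 3.92.

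At AXIN2 the distal regions were smaller. The strongest peaks lay 22.1 to 24.6 kb upstream (signal value 10.9), 13.2 to 16.0 kb downstream (8.81) and 10.8 to 12.1 kb upstream (7.72, with an H3K4me3 peak of 6.45). The downstream one lay in an H3K4me1 peak of 11399 bp that began 5156 bp from the start and had a signal value of 10.3. The distal signal values were thus far under the 82.9 of the promoter.

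TBX3 differed in that 6 of its 8 H3K27ac peaks overlapped H3K4me3. A peak of 7736 bp from 9.8 to 17.5 kb downstream (signal value 22.1) carried H3K4me3 of 27.5, and one of 2823 bp from 6.8 to 9.6 kb upstream (20.6) carried H3K4me3 of 35.8. The peak from 24.1 to 29.5 kb downstream (17.2) overlapped an H3K4me3 peak of only 363 bp with a signal value of 1.44, and the strongest H3K4me1 peak of the 9 genes (11.1, rank 1068). It counts as promoter-like by that small overlap. With at least 50% of the peak covered, TBX3 had 5 promoter-like and 3 enhancer-like peaks, against 6 and 2.

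LRP6 had more H3K27ac peaks in its window than 90.6% of the windows around H3K4me3 summits and LGR5 more than 69.7%. The strongest distal H3K27ac peaks of LRP6 lay 48.5 to 53.2 kb downstream (signal value 17.0), 23.8 to 27.9 kb downstream (15.8) and 46.9 to 48.4 kb upstream (12.9). That of LGR5, 32.1 to 33.6 kb downstream, had 4.07, and no H3K4me1 peak near LGR5 exceeded 4.37, although there were 27. GLUL had 1 enhancer-like peak, 6.1 to 6.9 kb downstream, with a signal value of 1.88. H3K4me1 that overlapped neither other mark reached 9.50 near TBX3, 18.7 to 20.7 kb upstream, 6.64 near AXIN2 and 5.67 near GLUL.

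**Figure D4:**
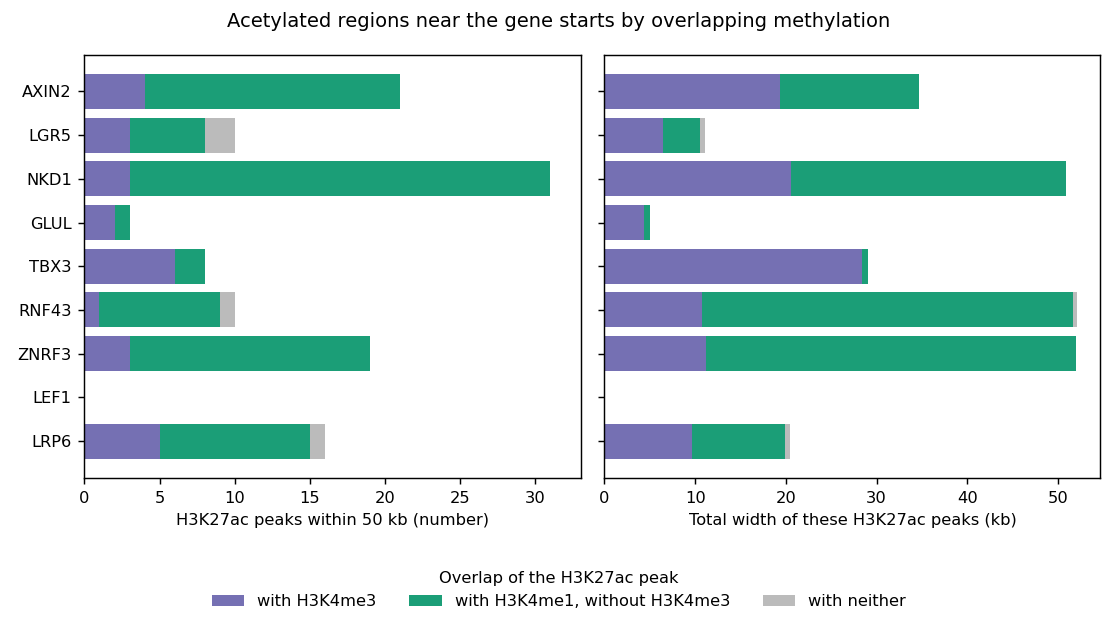
H3K27ac peaks within 50 kb of each gene start by the methylation they overlap, as the number of peaks (left) and their total width in kb (right, with the whole of a peak that crosses the edge of the window). NKD1 has the most peaks, 31, while by width RNF43 and ZNRF3 are led by enhancer-like regions (40.8 kb each) and TBX3 by promoter-like ones (28.4 kb).

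The acetylated regions most like that of LRP6 were sought by the percentile of signal value in the 3 lists, taking the strongest overlapping H3K4me1 and H3K4me3 peak. The LRP6 region stood at the top for H3K27ac, at percentile 43.37 for H3K4me1 and at 96.32 for H3K4me3. The 5 nearest regions were chr2:171784006-171788481, chr15:25681414-25685381, chr4:109571014-109573276, chr4:74122552-74126723 and chr18:61032789-61035770, at distances of 1.49 to 2.37 percentile points over 66513 regions. Their H3K27ac signal values were 44.1 to 55.8. These regions were not assigned to genes.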

How the data were processed

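ChIP-seq peak lists of H3K27ac, H3K4me1 and H3K4me3 in HepG2 cells were analysed, 1 pooled list of 3 libraries for each mark. Per the labels' protocols, 300 ng of sheared DNA was used and reads were 51 bp. Per the submitters' processing notes, MACS2 and the build hg19 (GRCh37) were used. The version, aligner, threshold and use of the controls are not given in the sources used here. The signal value of each peak is the authors', on a scale that no source here explains. Each peak also has a deposited −log10 p-value and −log10 q-value. Depth per library is unknown, and the control libraries gave no values here.

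Gene starts were taken as GRCh37 positions and positions are counted from 1. Peaks on chromosomes 1 to 22 and X were kept, and a peak was near a gene if at least 1 of its bases lay within 50 kb. Ranks run from the highest value of a list. Windows around all 24446 H3K4me3 summits gave the background of counts. Interval functions were tested on simulated data. Python 3.11.15, numpy 2.4.6 and matplotlib 3.10.9 were used.

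All 9 genes were named. The genes, lists and measures were chosen with earlier results of these data known, and the count of summits by side with stricter peaks was added after the data had been seen. For want of a GRCh37 annotation, a wider list of pathway genes and marker genes of cell types, and backgrounds over all gene starts, were not analysed here. Alternatives were other distances, stricter thresholds, joined peaks, other overlap rules and ranking by p-value.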

Additional observations from a re-analysis of the deposited data

How the results depend on the processing

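No paired analysis was possible because each list pools its replicates, and for the same reason no replicate could be left out. Over 53 results, 239 alternative values were computed, of which 133 stayed within 1.5 times the main value. For single genes, 88 of 162 peak counts and 22 of 30 ranks did so.

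The number of starts in H3K27ac and H3K4me3 peaks was 8 or 9 under each alternative. A distance of 1000 bp in place of a peak over the start gave 9 starts with H3K4me1 instead of 1. Within 20 kb there were 61 H3K27ac, 94 H3K4me1 and 16 H3K4me3 peaks, with 43 enhancer-like, 35 H3K4me1-only and 0 acetylated peaks without methylation. Within 100 kb there were 217, 350 and 42 peaks, with 41 promoter-like, 166 enhancer-like, 167 H3K4me1-only and 10 without methylation. A −log10 q-value of at least 5 left 74 H3K27ac peaks, 53 of them enhancer-like and 0 without methylation. The stronger 50% of each list left 43, 96 and 11 peaks. Joining peaks within 1000 bp gave 43 H3K27ac and 89 H3K4me1 peaks. With at least 50% of the H3K27ac peak to be covered, 7 counted as without methylation, although only 4 overlapped neither mark at all. Fewer or more peaks follow from how these alternatives are built. By −log10 p-value LRP6 ranked 14 in place of 1. The cause was not tested. Joining peaks, for the downstream share, and leaving out LRP6, for the spread of signal values, were chosen after seeing the data. They moved none of these values by over 1.5 times.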

Other observations

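Ranking by −log10 p-value changed the place of some start peaks by more than 1.5 times, in both directions. Those of NKD1, on chromosome 16, moved up, from 4054 to 2639 for H3K27ac and from 1306 to 723 for H3K4me3. Moves down were seen for H3K4me3 at LGR5 (807 to 3731) and LRP6 (900 to 2400), both on chromosome 12, at ZNRF3 on chromosome 22 (4501 to 7599) and at AXIN2 on chromosome 17 (287 to 472). For H3K27ac they were seen at AXIN2 (29 to 97), GLUL on chromosome 1 (143 to 468) and LRP6 (1 to 14). TBX3, also on chromosome 12, moved little, from 2657 to 3083 for H3K4me3. RNF43 moved from 7197 to 4844 for H3K4me3, within 1.5 times.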
